A study of Taeniopygia guttata with 2 samples.

Results

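SST, NPY, NOS1, VIP, CCK, PVALB, CALB1 and CALB2 encode the peptides, the nitric oxide synthase and the calcium-binding proteins by which classes of striatal interneurons are usually told apart. They were taken by name from the 17430 gene columns of the count table of both libraries, and all 8 were found. Their counts were read in each of 23 clusters of nuclei and in each library, and by detection of pairs of them in the same nucleus within the 8 clusters that the study called interneurons (2529 of 27245 nuclei).

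Somatostatin (SST) and neuropeptide Y (NPY) are inhibitory neuropeptides, vasoactive intestinal peptide (VIP) and cholecystokinin (CCK) are mostly excitatory ones, and NOS1 makes the gaseous messenger nitric oxide. In the mammalian striatum, SST, NPY and NOS1 are found together in a class of low-threshold spiking interneurons, parvalbumin (PVALB) marks fast-spiking interneurons, and calretinin (CALB2), VIP or CCK mark smaller classes. Calbindin (CALB1) in mammals is also found in many medium spiny neurons (MSNs), the projection neurons of the striatum. Area X is the nucleus of the songbird basal ganglia that serves song, and it holds pallidal-like neurons among its striatal cells.

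The data are single-nucleus RNA sequencing of Area X from adult male zebra finches, in which each captured transcript is counted once by its unique molecular identifier (UMI). The library labelled shFoxP2 came from 2 birds injected with an adeno-associated virus (AAV) that carried a hairpin against the transcription factor gene FoxP2. The shScr library came from 2 birds injected with the same construct carrying a scrambled hairpin. The tissue of both birds of a condition was pooled before the nuclei were captured. The construct was driven by a CAG promoter, which is not specific to a cell type. In the labels all birds were 160 to 185 days post hatch, had their light cycle reversed for some days, and were taken shortly before lights-on. The labels call the cells striatal projection neurons, whereas the tables hold 10 named cell types. With 1 library per condition there was no spread between replicates, no difference between libraries could be tested, and library, birds and hairpin cannot be told apart. All intervals below are at the 95% level and cover counting error only.

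The library labelled shFoxP2 held 12956 nuclei with 42662731 UMIs, and the shScr library held 14289 nuclei with 39179294 UMIs. Median UMIs per nucleus were 2871 in the library labelled shFoxP2 and 2300 in shScr, and in interneuron nuclei 3992 and 3465. Interneurons made up 10.6% of nuclei labelled shFoxP2 (1372 nuclei) and 8.10% in shScr (1157 nuclei). Of all barcodes, 47 occurred in both libraries. FOXP2 RNA itself was not lower in the library labelled shFoxP2: it stood at 5.02 UMIs per 10000 there and at 4.31 in shScr over all nuclei (log2 ratio 0.22, 0.19 to 0.25), and at 3.15 and 2.81 in interneurons (log2 ratio 0.17, 0.06 to 0.27). These counts are of RNA in nuclei, from exons and introns. The study showed its knockdown as a loss of FoxP2 protein, by immunostaining in Area X and on blots of cultured cells, which the counts do not measure. The summed level of 7 interneuron markers, which include the members SST, NPY, NOS1 and PVALB, was highest in cluster 16 among the 23 clusters (39.7 UMIs per 10000 in the library labelled shFoxP2, 38.3 in shScr). NPY alone stood at 23.4 and 19.4 there, so the sum is no independent check of the cluster names. The interneuron sum was 15.1 and 17.7 in interneurons together. Its lowest values among interneuron clusters were 9.22 (cluster 19, labelled shFoxP2) and 9.48 (cluster 18, shScr). In interneurons together, 6 MSN markers, which include GAD2 and FOXP2, summed to 28.4 in the library labelled shFoxP2 and 32.5 in shScr, against 104 and 115 in MSN cluster 2. Among interneuron clusters this sum was highest in cluster 16 in the library labelled shFoxP2 (56.5) and in cluster 21 in shScr (51.9). FOXP2 in cluster 16 stood at 13.5 and 8.90, against 12.7 and 12.8 in MSN cluster 4. In interneurons together, the 4 microglial markers that were measured summed to 0.0369 and 0.0810, and the glutamatergic marker SLC17A6 stood at 0.0335 and 0.0698. No marker of any list was at 0 over all interneurons in either library.

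Levels below are given as UMIs of a gene per 10000 UMIs of all genes, both summed over the nuclei in question, and are compared only within a gene. A nucleus with at least 1 UMI of a gene is called positive (+). Since RNA free in the suspension gives UMIs in nuclei that do not make a transcript, each share of positive nuclei was set beside that in oligodendrocytes (cluster 8, median 1515 UMIs in the library labelled shFoxP2 and 1374.5 in shScr), which should lack these peptides. Because nuclei differed in depth, shares were also taken after each nucleus was thinned at random to 1000 UMIs. Free RNA may make up a larger part of the UMIs of shallow nuclei, and thinning keeps that part. A level below that of oligodendrocytes therefore does not exclude expression in deeper nuclei.

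**Figure D1:**
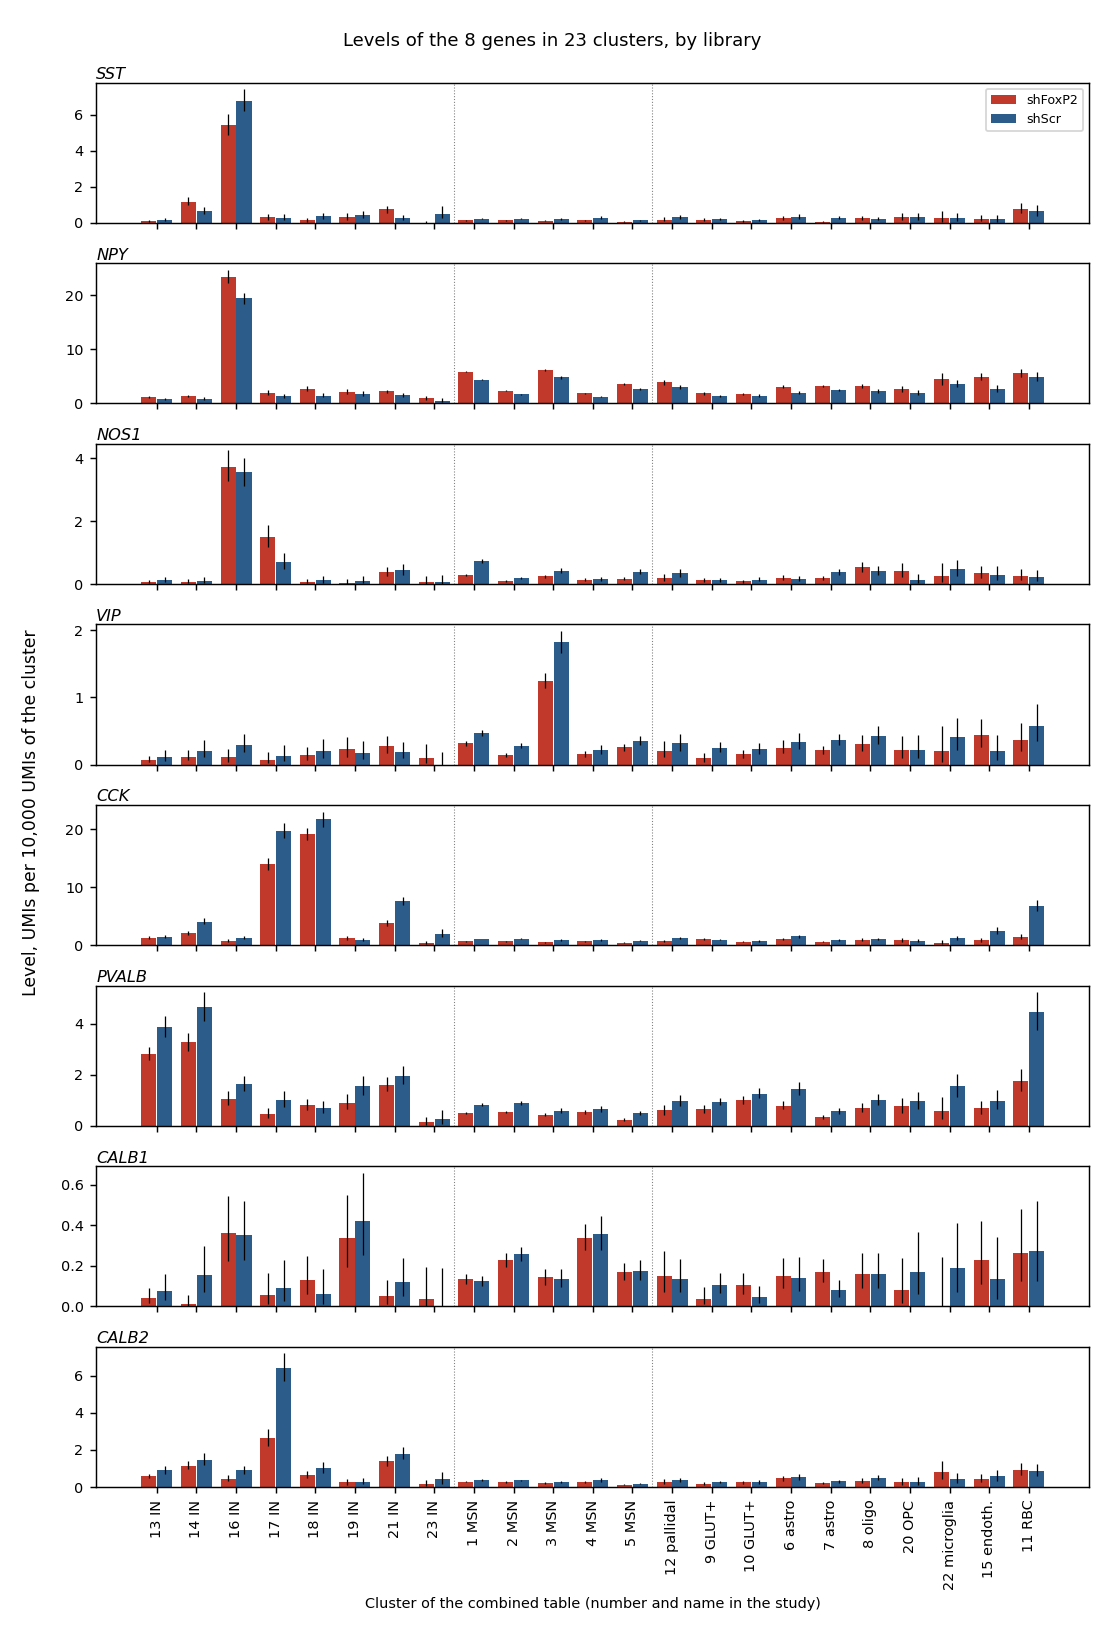
Level of each of the 8 genes (bars, UMIs per 10000, linear axis from 0 with a scale of its own per gene) in the 23 clusters, for the library labelled shFoxP2 (red) and shScr (blue), with exact 95% Poisson intervals that cover counting error only. SST, NPY and NOS1 peak in cluster 16, CCK in clusters 18 and 17, CALB2 in cluster 17, PVALB in clusters 14 and 13 and VIP in MSN cluster 3, while CALB1 has no clear peak.

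Of the 8 members SST had the largest step between its highest cluster and the next in both libraries. Its level in cluster 16 was 5.44 (4.87 to 6.05) in the library labelled shFoxP2 and 6.77 (6.18 to 7.40) in shScr. Interneuron cluster 14 came next, at 1.18 in the library labelled shFoxP2 and 0.658 in shScr, so cluster 16 stood 4.62-fold and 10.3-fold above the cluster below it. The intervals of cluster 16 overlapped those of no other cluster in either library. Red blood cells (cluster 11) followed, at 0.784 and 0.639, with 4.83% and 6.40% of their nuclei positive. In cluster 16, 38.1% of nuclei in the library labelled shFoxP2 and 49.0% in shScr were SST+ (27.0% and 33.5% after thinning), against 4.09% and 3.75% of oligodendrocytes (2.52% and 2.06% after thinning). Cluster 16 made up 1.44% of all UMIs of the library labelled shFoxP2 and 1.82% of those of shScr and held 31.4% and 34.3% of the SST UMIs. In the smallest interneuron cluster, cluster 23, none of 44 nuclei labelled shFoxP2 was SST+, which by its exact interval allows a level of up to 0.129. The level of 0.516 in shScr came from 10 UMIs in 2 of 32 nuclei. The intervals of the SST+ shares overlapped (up to 8.04% labelled shFoxP2, 0.77% to 20.8% in shScr).

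NPY had its highest level in the same cluster but was spread far wider. In cluster 16 it stood at 23.4 (22.2 to 24.7) in the library labelled shFoxP2 and at 19.4 (18.4 to 20.4) in shScr, with 83.1% and 61.7% of nuclei positive. MSNs held 68.7% of its UMIs in the library labelled shFoxP2 and 66.2% in shScr, close to their share of all UMIs (64.6% and 64.4%), and cluster 16 held 8.79% and 11.9%. Among MSN clusters the level was highest in cluster 3 (6.15 and 4.85) and cluster 1 (5.89 and 4.38) and lowest in cluster 4 (1.85 and 1.27). The lowest levels of all were found in other interneurons, with 0.980 in the library labelled shFoxP2 and 0.516 in shScr in cluster 23, and 1.17 and 0.867 in cluster 13. Oligodendrocytes stood between, at 3.15 in the library labelled shFoxP2 and 2.26 in shScr, and 44.5% and 32.9% of them were NPY+ (28.6% and 20.6% after thinning). The levels of the 7 interneuron clusters other than cluster 16 were below those of oligodendrocytes in both libraries, as were their thinned shares. NPY+ nuclei in them were not read as expression, but their nuclei were deeper and the comparison does not exclude it.

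VIP, which marks a class of cortical interneurons in mammals, was highest in an MSN cluster. In MSN cluster 3 its level was 1.25 (1.14 to 1.36) in the library labelled shFoxP2 and 1.82 (1.66 to 1.99) in shScr, and 29.5% and 37.1% of nuclei were VIP+ (13.8% and 18.2% after thinning). In oligodendrocytes 7.16% and 6.67% of nuclei were VIP+ (4.48% and 4.63% after thinning). Cluster 3 held 37.2% of all VIP UMIs in the library labelled shFoxP2 and 29.2% in shScr, with 9.02% and 6.91% of all UMIs. Interneurons together stood at 0.136 and 0.182 with 5.32% and 5.62% of nuclei VIP+, at or below oligodendrocytes (level 0.308 and 0.424), and VIP was not detectable above background in them at this depth. Within cluster 3, the NPY level was 6.996 in VIP+ and 5.78 in VIP- nuclei of the library labelled shFoxP2, and 5.84 in VIP+ and 4.26 in VIP- nuclei of shScr, at nearly equal median depth (3197 and 3180.5 UMIs in the library labelled shFoxP2, 2644 and 2657.5 in shScr). The intervals of the VIP+ and VIP- nuclei did not overlap in either library.

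CCK marked a pair of interneuron clusters. Cluster 18 stood at 19.2 (18.2 to 20.3) in the library labelled shFoxP2 and at 21.7 (20.4 to 23.1) in shScr, and cluster 17 at 14.04 (13.05 to 15.1) and 19.7 (18.4 to 21.1). The intervals of clusters 18 and 17 overlapped in shScr but not in the library labelled shFoxP2. CCK+ nuclei made up 91.2% and 93.96% of cluster 18 and 84.0% and 94.6% of cluster 17, against 17.9% and 18.8% of oligodendrocytes. Next were cluster 21 (3.81 and 7.57) and, in shScr, red blood cells, which stood at 1.46 in the library labelled shFoxP2 and 6.82 in shScr. In cluster 14 the CCK+ share was 41.0% in the library labelled shFoxP2 and 68.0% in shScr (17.3% and 32.5% after thinning).

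NOS1 followed SST and NPY to cluster 16, at 3.74 (3.27 to 4.25) in the library labelled shFoxP2 and 3.55 (3.13 to 4.02) in shScr, with 28.1% and 26.2% of nuclei positive against 11.8% and 6.67% of oligodendrocytes. Cluster 17, which was one of the CCK clusters, came second in the library labelled shFoxP2 at 1.497 (1.18 to 1.87). In shScr cluster 17 stood at 0.692 (0.470 to 0.982), and its interval overlapped that of MSN cluster 1 at 0.740 (0.684 to 0.799). NOS1+ nuclei made up 30.2% of cluster 17 in the library labelled shFoxP2 and 16.8% in shScr (13.02% and 5.99% after thinning, against 6.16% and 3.599% of oligodendrocytes). Interneurons held 33.4% of NOS1 UMIs in the library labelled shFoxP2 and 20.7% in shScr, with 13.99% and 11.3% of all UMIs. MSNs held 48.3% of NOS1 UMIs in the library labelled shFoxP2 and 64.6% in shScr, with 64.6% and 64.4% of all UMIs.

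PVALB was highest in clusters 14 and 13. Cluster 14 stood at 3.26 (2.91 to 3.63) in the library labelled shFoxP2 and 4.63 (4.09 to 5.22) in shScr, and cluster 13 at 2.83 (2.57 to 3.10) and 3.87 (3.48 to 4.30), so that these neighbours in the order did not differ beyond their counting intervals. PVALB+ nuclei made up 70.3% and 75.2% of cluster 14 and 71.5% and 80.8% of cluster 13, against 15.6% and 17.9% of oligodendrocytes. Red blood cells reached 1.75 in the library labelled shFoxP2 and 4.44 in shScr, the second highest level in shScr. The SST level differed between these clusters, at 1.18 in cluster 14 and 0.0811 in cluster 13 in the library labelled shFoxP2, and 0.658 and 0.154 in shScr. SST+ nuclei were a minority of cluster 14, at 18.9% and 12.4%, against 3.93% and 5.49% of cluster 13. In shScr the SST level of cluster 14 was near that of red blood cells, at 0.639. In cluster 14, 63.8% of SST+ nuclei (30 of 47) and 71.8% of SST- nuclei were PVALB+ in the library labelled shFoxP2, and 57.9% (11 of 19) and 77.6% in shScr, with overlapping intervals in both.

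CALB2 was highest in cluster 17, at 2.63 (2.21 to 3.11) in the library labelled shFoxP2 and 6.43 (5.71 to 7.21) in shScr. Clusters 21 (1.38 and 1.80) and 14 (1.16 and 1.47) came next, and their intervals overlapped each other. CALB2+ nuclei made up 45.6% of cluster 17 in the library labelled shFoxP2 and 65.9% in shScr, against 7.67% and 8.54% of oligodendrocytes. CCK and CALB2 met in cluster 17: of CALB2+ nuclei, 83.1% in the library labelled shFoxP2 and 91.8% in shScr were CCK+, against 84.8% and 100% of CALB2- nuclei. The CCK level was 11.8 in CALB2+ and 16.2 in CALB2- nuclei of the library labelled shFoxP2, and 19.8 and 19.6 in those of shScr. NOS1 did not divide the CALB2 nuclei of cluster 17 by level. The CALB2 level was 2.55 in NOS1+ and 2.68 in NOS1- nuclei of the library labelled shFoxP2, and 6.49 and 6.42 in those of shScr.

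CALB1 was low in each of the 23 clusters. Its level in interneurons together was 0.106 in the library labelled shFoxP2 and 0.169 in shScr, from 63 and 75 UMIs, against 0.159 and 0.161 in oligodendrocytes and 0.192 and 0.195 in MSNs. The highest levels were found in cluster 16 (0.359 and 0.350), cluster 19 (0.338 and 0.421) and MSN cluster 4 (0.336 and 0.356), and their intervals overlapped. MSNs held 73.7% of CALB1 UMIs in the library labelled shFoxP2 and 72.7% in shScr, and 64.6% and 64.4% of all UMIs. When the shScr library was clustered alone, however, 54 of the 142 cluster 19 nuclei formed an interneuron cluster of their own, numbered 22. CALB1 stood at 0.919 (0.554 to 1.44) there with 22.2% of nuclei positive, the highest level of that clustering, against 0.168 and 3.22% in its oligodendrocytes. Over all interneurons, VIP and CALB1 were thus not above oligodendrocytes beyond counting error, while CALB1 was higher in this small group of shScr nuclei.

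Among the known interneuron classes that its GABAergic clusters likely match, the study listed a class with SST, NPY and NOS1. Cluster 16 gathered the highest levels of SST, NPY and NOS1, but SST and NPY were high in different nuclei of it. Of its SST+ nuclei, 75.4% (46 of 61) in the library labelled shFoxP2 and 45.5% (46 of 101) in shScr were NPY+, against 87.9% and 77.1% of SST- nuclei. After thinning the NPY+ shares were 51.2% of SST+ and 73.3% of SST- nuclei in the library labelled shFoxP2, and 29.0% and 52.6% in shScr. The NPY level was 10.6 in SST+ and 30.4 in SST- nuclei of the library labelled shFoxP2, and 4.13 in SST+ and 34.5 in SST- nuclei of shScr. With at least 5 UMIs of each gene, 27 nuclei labelled shFoxP2 had SST, 84 had NPY and 3 had both, and in shScr 46 had SST, 67 had NPY and 1 had both. With at least 10 UMIs, 8 nuclei labelled shFoxP2 had SST and 56 had NPY, 11 shScr nuclei had SST and 47 had NPY, and none had both in either library.

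**Figure D2:**
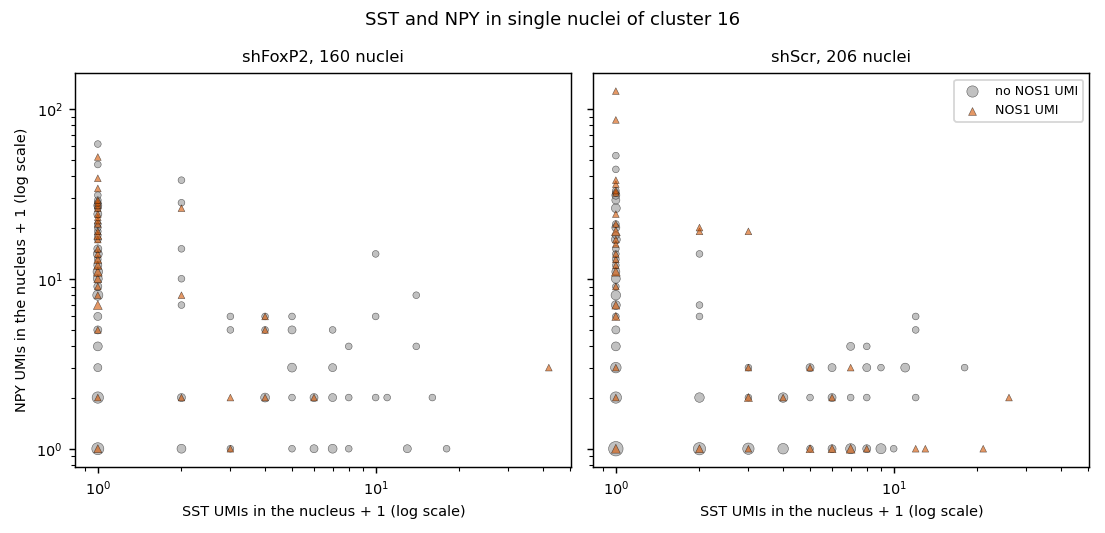
SST UMIs + 1 (x axis) and NPY UMIs + 1 (y axis), both on logarithmic scales, of the nuclei of cluster 16, with 160 nuclei in the library labelled shFoxP2 on the left and 206 in shScr on the right. Triangles are NOS1+ nuclei, circles are nuclei without a NOS1 UMI, and larger symbols stand for more nuclei. Nuclei with many SST UMIs lie along the x axis and nuclei with many NPY UMIs along the y axis, and none has at least 10 of both.

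By level, NOS1 went with NPY. In cluster 16 its level was 1.06 in SST+ and 5.20 in SST- nuclei of the library labelled shFoxP2, and 1.55 in SST+ and 5.54 in SST- nuclei of shScr. The NPY level in turn was 34.3 in NOS1+ and 19.2 in NOS1- nuclei of the library labelled shFoxP2, and 32.3 and 14.4 in those of shScr. By detection the contrast was weaker in shScr, where 14 of 55 SST+ NPY- and 26 of 81 NPY+ SST- nuclei were NOS1+. In the library labelled shFoxP2 these were 1 of 15 and 33 of 87. PVALB went with SST, since 45.9% of SST+ and 20.2% of SST- nuclei labelled shFoxP2 were PVALB+, and 50.5% and 22.9% of those of shScr. Nuclei positive for SST, NPY and NOS1 together made up 5.62% of cluster 16 in the library labelled shFoxP2 (2.60% to 10.4%) and 5.34% in shScr (2.70% to 9.35%), and nuclei with none of these made up 6.25% and 10.2%.

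The nuclei of cluster 16 positive for SST alone or NPY alone were next compared for the other markers, as a description of sets formed after this pattern had been seen. There were 15 SST+ NPY- and 87 NPY+ SST- nuclei in the library labelled shFoxP2, and 55 and 81 in shScr. ERBB4, a neuregulin receptor found in many cortical and striatal interneurons, stood at 110 in SST+ NPY- and 7.41 in NPY+ SST- nuclei of the library labelled shFoxP2 (log2 ratio 3.89, 3.67 to 4.11), and at 102 and 10.5 in those of shScr (log2 ratio 3.28, 3.10 to 3.47). The transcription factor genes LHX6 and SATB1, which act in the making of interneurons from the medial ganglionic eminence in mammals, were on the same side. LHX6 stood at 1.77 and 0.346 in the library labelled shFoxP2 and 1.49 and 0.181 in shScr, and SATB1 at 2.22 and 0.144 and at 1.10 and 0.181. CRHBP, which binds the stress peptide CRH, stood at 3.55 and 0.433 in the library labelled shFoxP2 and at 2.49 and 0.253 in shScr. The same held for PVALB, at 2.44 and 0.548 in the library labelled shFoxP2 and at 2.93 and 0.903 in shScr, and for the transcription factor gene ETV1, at 2.00 and 0.375 and at 1.49 and 0.325.

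On the other side stood PENK, the precursor of the enkephalins and a marker of pallidal-like neurons in the study, with a level of 0.887 in SST+ NPY- and 16.4 in NPY+ SST- nuclei of the library labelled shFoxP2 (log2 ratio -4.21, -6.09 to -2.84) and of 0.939 and 25.4 in those of shScr (log2 ratio -4.76, -5.55 to -4.07). Over whole clusters PENK was not particular to the pallidal-like cluster 12, where it stood at 8.196 in the library labelled shFoxP2 and 9.52 in shScr. It was higher in interneuron cluster 19, at 16.5 and 15.96, and in cluster 16 itself, at 10.6 and 11.5. PENK alone thus does not mark these nuclei as pallidal-like. The 3 pallidal-like markers together summed to 33.4 in cluster 16 in the library labelled shFoxP2 and 26.5 in shScr, the highest of the interneuron clusters, against 54.7 and 53.8 in cluster 12. Of these, the transcription factor gene MEIS2, also an MSN marker, went with PENK, at 2.44 in SST+ NPY- and 33.2 in NPY+ SST- nuclei of the library labelled shFoxP2 and at 5.85 and 25.3 in those of shScr. MEIS2 made up most of the sum in cluster 16, at 22.2 in the library labelled shFoxP2 and 14.5 in shScr. MEIS2 was higher in MSN cluster 2, at 31.5 and 30.3, so a sum made up mostly of MEIS2, as in cluster 16, is not particular to pallidal-like neurons. TSHZ1 was low in both sets, at 0.222 and 0.317 in the library labelled shFoxP2 and 0.110 and 0.361 in shScr, against 6.39 and 5.57 in cluster 12. NOS1 stood at 0.444 and 5.85 in the library labelled shFoxP2 and at 1.22 and 7.08 in shScr. CHODL, a marker of NOS1 cells with long projections in the mouse cortex, had 0.331 and 2.53 in shScr (log2 ratio -2.93, -4.43 to -1.74), whereas in the library labelled shFoxP2 it had 0.887 and 1.64 and the interval included 0 (-2.81 to 0.54). GAD1, which makes GABA, stood at 9.76 and 10.1 in the library labelled shFoxP2 and at 8.34 and 10.0 in shScr, with intervals of the log2 ratio from -0.54 to 0.41 and from -0.56 to 0.03. For VIP, CCK, CALB1 and CALB2 the intervals included 0 in both libraries. When the shScr library had been clustered alone, 183 of its 206 cluster 16 nuclei lay in 1 cluster, which also took 85 of the 142 cluster 19 nuclei. A further 13 nuclei lay with the PVALB nuclei of cluster 13 (SST level 2.38, NPY level 1.28). Possible doublets, meaning droplets with 2 nuclei, made up 8.75% of cluster 16 in the library labelled shFoxP2 and 10.7% in shScr, near the 8% taken over each library.

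**Figure D3:**
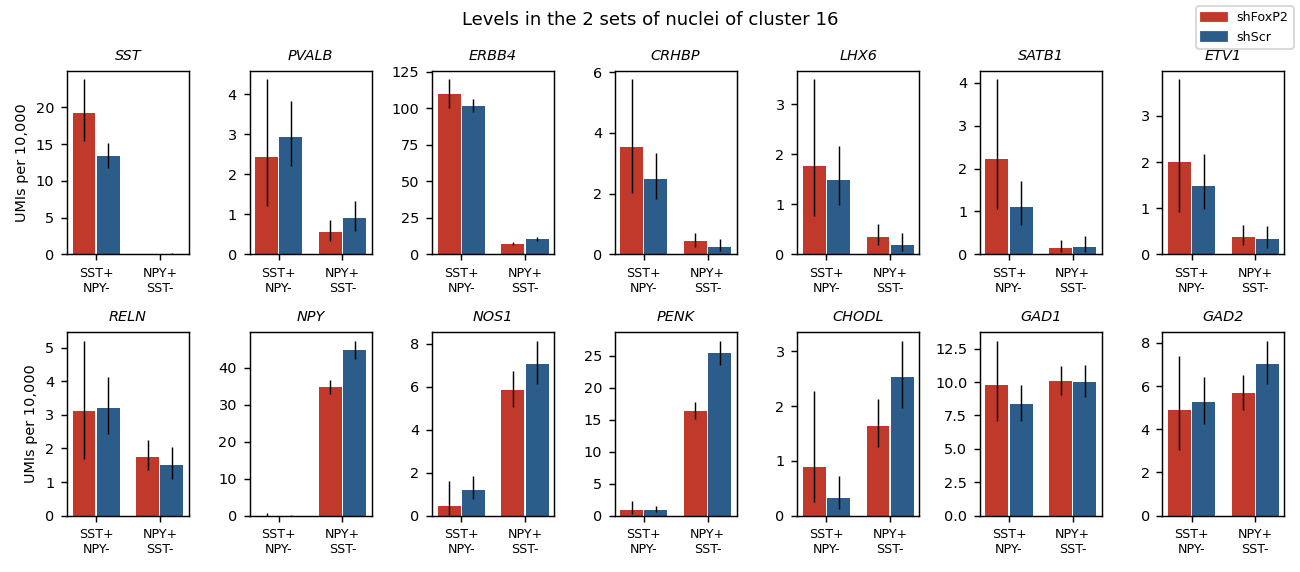
Levels (bars, UMIs per 10000, linear axes from 0 with a scale of its own per gene) of SST, NPY and marker genes in the SST+ NPY- and the NPY+ SST- nuclei of cluster 16, for the library labelled shFoxP2 (red) and shScr (blue), with exact 95% Poisson intervals. SST and NPY chose the sets. ERBB4, CRHBP, LHX6, SATB1, ETV1 and PVALB lie higher in SST+ NPY- nuclei and PENK and NOS1 higher in NPY+ SST- nuclei of both libraries.

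Cluster 18, the second CCK cluster, was also the cluster of cortistatin (CORT), a peptide closely related to somatostatin that binds the same receptors. CORT stood at 61.7 in the library labelled shFoxP2 and 51.8 in shScr there, and 100% (181 of 181) and 98.0% (146 of 149) of nuclei were CORT+, against 32.7% and 22.9% of oligodendrocytes (level 2.07 and 1.59). SST itself was near background in cluster 18, at 0.145 in the library labelled shFoxP2 and 0.354 in shScr. Among CORT+ nuclei 91.2% and 94.5% were CCK+. In cluster 16, CORT stood at 1.22 and 0.826, below oligodendrocytes. Possible doublets made up 15.5% of cluster 18 in the library labelled shFoxP2 and 17.4% in shScr. In cluster 21, whose nuclei were the second highest for CALB2 and the third highest interneuron cluster for CCK, they made up 55.8% and 50.0%, and its values for several members at once are given with that limit.

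Over all interneurons the log2 ratio of the library labelled shFoxP2 over shScr was below 0 for all 8 members, with intervals that included 0 for NPY and VIP. The share of all genes below 0 is not given, but their median was -0.03, with 25th and 75th percentiles of -0.21 and 0.14. With cluster shares held fixed, NPY (0.37) and NOS1 (0.13) were above 0. These ratios compare 1 library with 1, and FOXP2 RNA was not lower in the library labelled shFoxP2, where FoxP2 protein was not measured. CALB2 stood at 0.913 in the library labelled shFoxP2 and 1.60 in shScr (log2 ratio -0.81, -0.97 to -0.64). SST stood at 0.941 and 1.38 (log2 ratio -0.55, -0.72 to -0.38), and CCK at 4.87 and 6.71 (log2 ratio -0.46, -0.54 to -0.39). These differences exceeded the counting error, while the spread between libraries of 1 condition was not measured. NOS1 stood at 0.611 in the library labelled shFoxP2 and 0.772 in shScr (log2 ratio -0.34, -0.55 to -0.12) and PVALB at 1.83 and 2.30 (log2 ratio -0.33, -0.45 to -0.20). NPY stood at 3.94 and 4.13 (log2 ratio -0.07, -0.15 to 0.02). VIP (81 UMIs in each library) and CALB1 (63 and 75) had fewer than 200 UMIs in interneurons over both libraries and were not counted among the genes compared (CALB1 log2 ratio -0.68, -1.18 to -0.17).

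Of the 6 members with at least 200 UMIs, 1 (CALB2) lay past a fold of 1.5, and it was lower in the library labelled shFoxP2. Over all 6778 genes compared in interneurons 6.8% lay past that fold, 4.41% lower and 2.39% higher. The median log2 ratio was -0.40 over the 6 members and -0.03 over all genes, whose values had an SD of 0.33. In MSNs 4 of 8 members lay past the fold, all lower in the library labelled shFoxP2 (SST, NOS1, CCK and PVALB), where 13.6% of 10125 genes did so, 6.86% higher and 6.75% lower. NOS1 was the farthest of them, at 0.192 in the library labelled shFoxP2 and 0.425 in shScr (log2 ratio -1.15, -1.30 to -0.997). Summed over MSNs, these levels were at or below those of oligodendrocytes within counting error, where NOS1 stood at 0.531 and 0.413. MSN cluster 1 in shScr was an exception for NOS1, at 0.740 (0.684 to 0.799) against 0.413 (0.297 to 0.561) in oligodendrocytes. After thinning, 7.05% of its nuclei and 3.599% of oligodendrocytes were NOS1+ there. In the library labelled shFoxP2, cluster 1 stood at 0.285, below oligodendrocytes. For NOS1 the reading depends on the reference, since glutamatergic neurons, which were deeper nuclei, stood lower, at 0.0960 and 0.126. MSNs together stood above these neurons in both libraries, and in shScr so did MSN clusters 3 (0.413) and 5 (0.399). SST stood at 0.118 and 0.217 in MSNs (0.265 and 0.222 in oligodendrocytes), CCK at 0.613 and 1.01 (0.945 and 1.07) and PVALB at 0.474 and 0.763 (0.712 and 1.01). The MSN ratios of SST, CCK and PVALB were therefore not read as changes of MSN expression. For NOS1 this reason does not cover cluster 1 and is uncertain for the other MSN clusters. The NOS1 differences rest on 1 library per condition. In all other nuclei 2 of 8 members, CCK and PVALB, lay past the fold, both lower (log2 ratios -0.63 and -0.63), where 7.84% of 8958 genes did so, 4.36% higher and 3.47% lower. Over all nuclei 1 of 8, NOS1, lay past it at 0.256 in the library labelled shFoxP2 and 0.424 in shScr (log2 ratio -0.73), where 12.1% of genes did so, 6.2% higher and 5.91% lower.

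**Figure D4:**
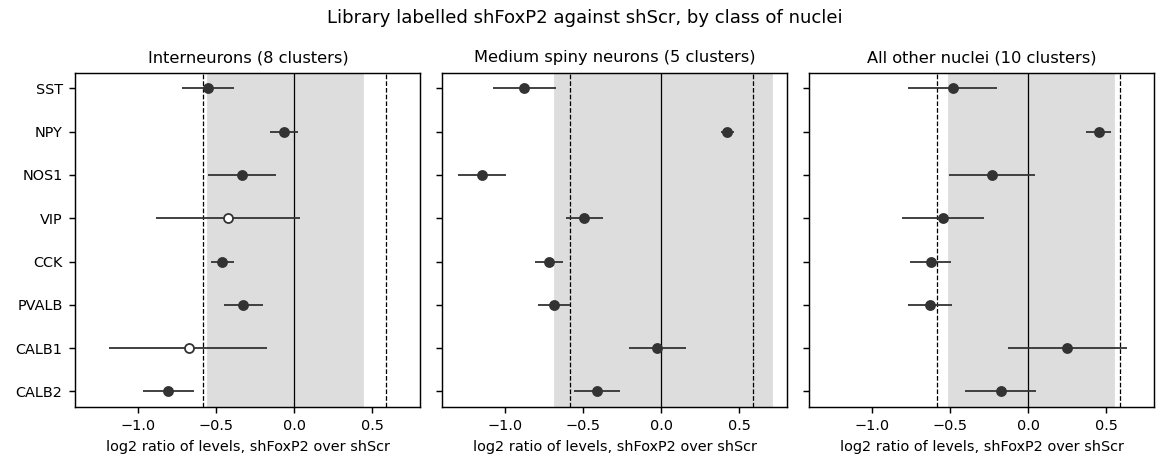
Log2 ratio of the level in the library labelled shFoxP2 over shScr for each of the 8 genes in interneurons, MSNs and all other nuclei (points, with exact 95% intervals that cover counting error only). The grey band in each panel spans the 5th to the 95th percentile of all genes compared in that group of nuclei, from -0.55 to 0.44 in interneurons and from -0.68 to 0.71 in MSNs. Dashed lines mark a fold of 1.5, and the open points, VIP and CALB1 in interneurons, had under 200 UMIs.

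NPY went its own way. Its level was higher in the library labelled shFoxP2 in 23 of 23 clusters, with intervals above 0 in 17 of them and a median log2 ratio of 0.44. The clusters of a library come from the same suspension and are not replicates. The share of all genes that keep the same sign in as many clusters is not given. The NPY ratios in the 5 MSN clusters lay between 0.34 and 0.54, and the median of the 10 clusters that are neither MSNs nor interneurons was 0.43. In cluster 16 the levels of 23.4 in the library labelled shFoxP2 and 19.4 in shScr gave 0.27 (0.16 to 0.38), and in oligodendrocytes the ratio was 0.48 (0.23 to 0.74). The ratio over the interneuron sum was nevertheless near 0. Cluster 16 made up 160 of 1372 interneuron nuclei labelled shFoxP2 and 206 of 1157 in shScr. With the shares of the clusters held fixed the log2 ratio of NPY in interneurons was 0.37, that of NOS1 was 0.13 and that of SST was -0.13, so the sign of NPY and NOS1 turned. CALB2 kept -0.78 and PVALB -0.47 in that calculation.

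PVALB was lower in the library labelled shFoxP2 in 22 of 23 clusters, CALB2 in 21 and CCK in 20, with intervals below 0 in 17, 8 and 17 of them and above 0 in none. VIP was lower in 19 clusters (intervals below 0 in 7, above 0 in none), SST in 17 (9 below, 2 above) and NOS1 in 15 (5 below, 2 above). CALB1 was lower in 13 and higher in 10, with 1 interval on each side. For these counts too the clusters are not replicates, and the share over all genes is not given. They include the MSN clusters, where the ratios of SST, CCK and PVALB were not read as changes of expression. In the main cluster of CALB2, cluster 17, the 2.63 of the library labelled shFoxP2 and the 6.43 of shScr gave a log2 ratio of -1.29 (-1.59 to -0.99). Its positive share there was 18.9% and 38.9% after thinning to equal depth. NOS1 in the same cluster 17 lay the opposite way, at 1.497 and 0.692 (log2 ratio 1.11, 0.50 to 1.76), while in cluster 16 its ratio was 0.07 (-0.19 to 0.34) and in MSN cluster 1 it was -1.38 (-1.60 to -1.16, from levels of 0.285 and 0.740). SST was likewise not uniform, with a log2 ratio of -0.32 (-0.52 to -0.11) in cluster 16 and 0.84 (0.30 to 1.41) in cluster 14. In cluster 21 it was 1.38 (0.61 to 2.21). CCK was lower by more in cluster 14 (log2 ratio -0.95, -1.22 to -0.67) and cluster 21 (-0.99, -1.20 to -0.78) than in its main clusters 17 (-0.49, -0.63 to -0.35) and 18 (-0.18, -0.30 to -0.06). In red blood cells, where free RNA is the usual source of neuronal transcripts, the log2 ratio of CCK was -2.22 (-2.67 to -1.79) and that of PVALB was -1.34 (-1.78 to -0.92). The part of free RNA in the ratios of the neuronal clusters was not tested.

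**Figure D5:**
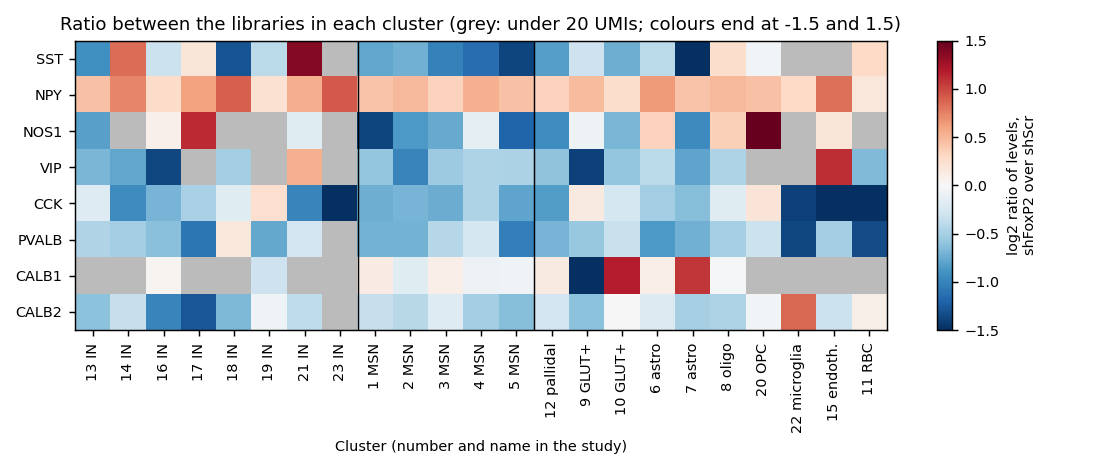
Log2 ratio of the level in the library labelled shFoxP2 over shScr for each gene (rows) in each of the 23 clusters (columns, grouped by cell type), with colours that end at -1.5 and 1.5 and grey for fewer than 20 UMIs over both libraries. The NPY row is above 0 throughout, the PVALB, CCK and VIP rows are mostly below it, and NOS1 and SST differ in sign among interneuron clusters.

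Genes of the same pathways were counted in interneurons by the same rule. Of 15 genes for receptors of these peptides, 13 were measured and 5 had enough UMIs, and 1 of these lay past the fold, lower in the library labelled shFoxP2 (median log2 ratio -0.41). VIPR1, a receptor of VIP and of the related peptide PACAP, was that gene, with a log2 ratio of -1.40 over interneurons and levels of 2.22 and 5.74 in cluster 19, where it was highest. VIPR2, the sister receptor, was highest in the PVALB cluster 14, at 6.31 in the library labelled shFoxP2 and 11.4 in shScr (log2 ratio over interneurons -0.41). ADCYAP1R1, the receptor specific for PACAP, was highest among interneurons in cluster 17, at 18.4 and 20.9, below astrocyte cluster 6 at 24.9 and 24.7 (log2 ratio over interneurons -0.24). Receptors of VIP were thus found in interneuron clusters in which VIP was not detectable above background.

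Of 13 genes of the nitric oxide cascade, 10 were measured and 7 compared, with a median log2 ratio of 0.03. GUCY1A1, GUCY1A2 and GUCY1B1, subunits of the guanylate cyclase that nitric oxide activates, were each highest among interneurons in cluster 23, at 7.74, 4.06 and 3.99 in the library labelled shFoxP2 and 5.57, 4.23 and 3.56 in shScr. Their log2 ratios over interneurons were 0.03, -0.07 and -0.08. Cluster 23 was also the cluster with the lowest NPY and PVALB levels of the 23 in both libraries. Only PDE9A, which breaks down the cyclic GMP that this cyclase makes, lay past the fold, at 0.69 (0.38 to 1.00).

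Of 16 other calcium-binding proteins, 14 were measured and 7 compared (median -0.14), and CABP7, an EF-hand protein, lay past the fold at -0.99. The calcium sensor genes VSNL1, HPCAL1 and NECAB2 had log2 ratios over interneurons of -0.46, -0.05 and 0.14. Of 28 other interneuron peptides and markers, 28 were measured and 20 compared (median -0.14), and 2 peptide genes lay past the fold, TAC1 at -0.99 and CRH at -0.91, both lower in the library labelled shFoxP2. The highest TAC1 level of an interneuron cluster (cluster 18, 6.14 and 12.7) was below that of oligodendrocytes (8.47 and 15.95). TAC1 was therefore not read as interneuron expression, although the comparison does not exclude it in these deeper nuclei. CORT lay at 0.36, ERBB4 at -0.08 and SOX6, a transcription factor gene of interneurons, at -0.09. ERBB4 was highest in cluster 14, at 80.5 in the library labelled shFoxP2 and 82.1 in shScr, and SOX6 in cluster 17, at 19.97 and 18.3.

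The genes whose levels over the 23 clusters ran most like those of a member were found in shScr among 9043 genes, by Pearson correlation of log2(UMIs per 10000 + 0.1). All points come from the same library and differ in depth, so the values are a description. NPY and NOS1 were mutually alike (r = 0.81), NPY also ran with MTNR1B (0.80), a melatonin receptor, and CYGB (0.79), a globin, and NOS1 with GRPR (0.75) and CYGB (0.71). In the library labelled shFoxP2 CYGB was the gene most like both of them. For CCK the genes were SEMA3C (0.86), CALB2 (0.85) and CXCL12 (0.83), and for CALB2 they were RASD1 (0.89), CXCL12 (0.86) and KCNF1 (0.86), and CXCL12 was most like CALB2 in the library labelled shFoxP2. PVALB ran with NDRG4 (0.88), MAP1A (0.87) and GGH (0.85). SST ran with PLS1 (0.83), COL24A1 (0.69) and KIF3A (0.65), VIP with DLK1 (0.76), NAAA (0.75) and CHRNA3 (0.75), and CALB1 with YIPF4 (0.80), AP1AR (0.74) and SLC35E3 (0.72). In the library labelled shFoxP2, DLK1 ranked 4, SEMA3C 5, PLS1 68, MTNR1B 95, YIPF4 158 and NDRG4 213 among the genes most like their member. The lowest ranks there were those of SLC35E3 (1298), KIF3A (1261) and AP1AR (1146). SST and NPY correlated at 0.54 over clusters in both libraries, although within cluster 16 they were high in different nuclei.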

How the data were processed

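Single-nucleus libraries of Area X were examined, 1 labelled shFoxP2 and 1 shScr, each from 2 pooled birds. Per the study's methods the authors counted reads on exons and introns with Cell Ranger, which the submitters' processing notes also name, and removed nuclei above limits on UMIs and on the percent of mitochondrial UMIs. The deposited tables hold whole UMI counts per gene and nucleus, not normalized, with the cluster of each nucleus. They were used for both libraries together and for shScr alone, and the counts of shScr nuclei were identical in both tables. Per the file, nuclei had 500 to 9997 UMIs and at most 4.99 percent mitochondrial UMIs, a deposited percent that was used only for this check. No deposited per-sample column was left out. The table of both libraries names them by codes, and these were matched to the labels through the barcodes of the shScr table. Cluster names follow the study. Of the gene columns, 12787 had a symbol.

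Counts were summed per cluster and library with pandas 2.3.3 and numpy 2.4.6 under Python 3.11.15, intervals were computed with scipy 1.17.1, and figures were drawn with matplotlib 3.10.9. Intervals were exact (Poisson for sums, Clopper-Pearson for shares, binomial for ratios of sums). A sum of 0 was set to 3 UMIs for ratios, and ratios across all genes used genes with at least 200 UMIs over both libraries. Since each condition has 1 library, no test was made, and a gene was counted as different past a fold of 1.5. Thinning drew 1000 UMIs per nucleus without replacement and left out 531 shallower nuclei in the library labelled shFoxP2 and 626 in shScr (5 and 3 of them interneurons). Scrublet (scanpy 1.11.5) called 0 doublets in each library at its own threshold and so had not worked there. The 8% of nuclei with the highest scores (1036 and 1143) were therefore taken as possible doublets, and were kept except in an alternative.

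Members and gene lists were chosen with earlier results of these data known. All members are named, with the 3 most alike genes of each (pseudocount 0.1) and the 3 genes of each list with the highest level in an interneuron cluster. List genes past the fold, CORT in cluster 18, CALB1 in the clusters of shScr alone and the markers within cluster 16 were named after their values were seen. The scripts were tested on simulated data. Alternatives were other minimum UMIs, folds, thinning depths and thresholds for a positive nucleus, nuclei of at least 1000 UMIs only, centring on the median of all genes, a mean over nuclei, fixed cluster shares, no possible doublets, the clusters of shScr alone, another pseudocount and, added after the data were seen, no cluster 21.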

Additional observations from a re-analysis of the deposited data

How the results depend on the processing

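No paired analysis was possible because each condition had 1 library, and for the same reason no replicate could be left out. Of the 6 members with at least 200 UMIs, CALB2 was the only 1 past a fold of 1.5 in interneurons, and the count of members past it became 2 both without possible doublets and without cluster 21 (an alternative chosen after seeing the data), since SST then passed as well (log2 ratio -0.70 without cluster 21). The share of genes past that fold, 6.80%, was 13.1% with at least 50 UMIs and 17.5% with at least 20 UMIs, and 1.34% lay past a fold of 2. The difference in NPY+ share between SST+ and SST- nuclei of cluster 16 was negative under every alternative run. In the library labelled shFoxP2 it was -12.5 points, and -30.7 points with nuclei thinned to 500 UMIs and -32.1 points with at least 2 UMIs for a positive nucleus. In shScr it was -31.6 points, and -13.3 points with the cluster of shScr alone that holds most of these nuclei. Of 56 log2 ratios of members under the alternatives, 47 stayed within their counting interval and 9 moved. Their ranges were -0.70 to -0.13 for SST, -0.13 to 0.37 for NPY, -0.36 to 0.13 for NOS1, -1.04 to -0.29 for VIP, -0.56 to -0.38 for CCK, -0.47 to -0.27 for PVALB, -0.69 to -0.09 for CALB1 and -0.90 to -0.78 for CALB2, with the upper ends of SST, NPY and NOS1 reached with cluster shares held fixed. Depth limits VIP and CALB1, for which interneurons held 81 and 63 UMIs in the library labelled shFoxP2 and 81 and 75 in shScr.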
